A study of Homo sapiens with 6 samples.

Results

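Replication-coupled chromatin and DNA methylation factors copy histones and methylation marks onto newly made DNA, and 7 of their genes, DNMT1, UHRF1, EZH2, CHAF1A, CHAF1B, ASF1B and HELLS, were followed here in irradiated breast cancer cells. The members, and the gene lists set beside them, were chosen by gene symbol with earlier results of these data known. Each member symbol matched a single row among the 58735 genes of the table. MDA-MB-231, a human cell line of basal-like breast cancer, carried a non-targeting shRNA (shSCR) in every library. In the labels the cells are SCR in name and WT in genotype. RNA-sequencing libraries were made from 3 samples at 0 Gy and from 3 samples collected 24 h after 10 Gy from a 137Cs gamma source. MAFF knockdown cells, the other arm of the study, were not used here. The labels do not say whether the 3 samples of a dose came from separate cultures, so p-values measure only the spread between these samples, which may be technical.

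When a replication fork passes, parental nucleosomes are split between the daughter strands and new histones H3 and H4 must be added. ASF1 proteins carry H3-H4 dimers to CAF-1, the chaperone bound to the replication clamp PCNA, whose large and middle subunits are encoded by CHAF1A and CHAF1B. The new DNA strand also lacks methyl groups, and UHRF1 recognises the resulting hemimethylated CpG sites and recruits DNMT1, the maintenance methyltransferase that restores them. HELLS is a chromatin remodelling ATPase needed for methylation of packed DNA, and EZH2 is the catalytic subunit of Polycomb repressive complex 2 (PRC2), which methylates histone H3 on lysine 27. Many of these genes are E2F targets transcribed towards S phase in cycling cells.

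RefSeq promoters were examined because E2F target genes carry short motifs close to their start. RefSeq (GRCh38.p14) gave 10 promoters for the 7 genes, each of 250 bases before and 50 bases after a start site. The E2F motif was searched as TTTCCCGC, TTTCGCGC, TTTGCCGC or TTTGGCGC on both strands, the cell cycle homology region (CHR) as TTTGAA or TTCGAA on both strands, and the NF-Y motif as CCAAT on both strands. No motif contains another, and TTCGAA is its own complement. Below are 110 bases around one start of each gene that held an E2F or CHR motif, reading 5′ to 3′ from 100 bases before the start to the first 10 bases of the transcript, with E2F motifs in capitals for DNMT1, UHRF1, EZH2 and HELLS and the CHR in capitals for ASF1B.
DNMT1 (chr19:10194944-10195053, minus strand): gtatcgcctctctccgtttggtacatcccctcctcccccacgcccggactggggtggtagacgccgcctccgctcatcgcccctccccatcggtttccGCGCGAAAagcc
UHRF1 (chr19:4909401-4909510, plus strand): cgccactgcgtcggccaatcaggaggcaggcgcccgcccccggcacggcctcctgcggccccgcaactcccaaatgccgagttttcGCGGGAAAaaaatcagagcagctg
EZH2 (chr7:148884282-148884391, minus strand): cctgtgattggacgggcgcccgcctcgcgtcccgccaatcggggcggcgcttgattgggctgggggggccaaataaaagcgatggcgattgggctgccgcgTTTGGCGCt
HELLS (chr10:94545688-94545797, plus strand): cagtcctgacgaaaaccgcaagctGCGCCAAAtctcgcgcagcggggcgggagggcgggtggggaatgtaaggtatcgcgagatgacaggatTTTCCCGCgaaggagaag
ASF1B (chr19:14136580-14136689, minus strand): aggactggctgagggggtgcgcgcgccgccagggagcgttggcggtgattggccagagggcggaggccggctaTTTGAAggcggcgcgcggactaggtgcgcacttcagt

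An E2F motif was found in the promoters of 4 of the 7 genes, DNMT1, UHRF1, EZH2 and HELLS, and in 3.99% of the 27305 genes with a promoter. In the stretches above it began 2 bases before the start of DNMT1, 14 bases before that of UHRF1, at base 2 of the EZH2 transcript, and 76 and 8 bases before the start of HELLS. Another UHRF1 start held an E2F motif 160 bases before it, while a further UHRF1 start and another EZH2 start held none. By promoter, 5 of the 10 held the motif, against 3.31% of all promoters. ASF1B alone among the 7 held a CHR motif, 27 bases before its start, while 19.5% of all genes held one. CCAAT was present in 5 of the 7, namely UHRF1, EZH2, CHAF1A, ASF1B and HELLS, against 39.7% of all genes, and no motif of these 3 kinds was in the window of CHAF1B. Promoters of the 7 genes held between 22 and 46 CpG sites in 300 bases, above the median of 14 over all promoters. These matches describe letters in a window and show nothing about binding, and genes with and without an E2F motif were found both among those that fell by about 0.27 on the log2 scale after 10 Gy (UHRF1, EZH2 and HELLS with it, CHAF1A without) and among those with smaller values (DNMT1 with it, CHAF1B and ASF1B without).

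Expression was deposited by the authors as FPKM, that is, fragments divided by gene length in kilobases and by library depth. Every value above 0 came out as whole reads within 0.05 of a read, and the recovered reads ranged from 15643641 to 28861781 per library. The depth by which each library had been divided was 0.973 to 0.991 times its recovered reads at 0 Gy and 1.03 to 1.04 times at 10 Gy, so a factor that moved with dose is part of the values. VIM and CD44, which mark these mesenchymal-like cells, stood at means of 301 and 78.6 FPKM at 0 Gy, and EGFR and KRT18 at 29.8 and 109 FPKM. PGR was listed at 0 in every library and ESR1 averaged 0.00872 FPKM, while CDH1 and EPCAM averaged 0.324 and 1.44 FPKM. Of 4 markers of other cell types, PTPRC and ACTA2 averaged 0.00404 and 0.342 FPKM at 0 Gy and overlapped between doses. PECAM1 averaged 1.22 FPKM at 0 Gy and 1.94 FPKM at 10 Gy, and COL1A1 3.03 and 4.19 FPKM, both higher in every irradiated library, and their part in the results was not tested. VIM was 251 FPKM at 10 Gy.

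At 0 Gy the methylation pair UHRF1 and DNMT1 and the chaperone ASF1B were the most abundant of the 7. Per length, UHRF1 stood at 66.1 ± 2.11 FPKM (SD, n = 3), DNMT1 at 62.6 ± 1.21 FPKM and ASF1B at 54.7 ± 1.64 FPKM, above 94.7%, 94.3% and 93.2% of the 12128 genes that averaged 1 FPKM or more. CHAF1A followed at 35.7 ± 1.36 FPKM and EZH2 at 31.8 ± 0.618 FPKM. CHAF1B and HELLS lay near the middle of all tested genes, at 9.63 ± 0.738 and 7.58 ± 0.716 FPKM. No neighbours in this order overlapped between libraries, although UHRF1 exceeded DNMT1 only 1.06-fold. The order rests on the gene lengths of the table, which count all transcripts of a gene: the length used for HELLS was 3.27 times that of its principal transcript. Dividing by the principal transcript instead placed DNMT1 at 113 FPKM above UHRF1 at 105 FPKM, EZH2 above CHAF1A (54.5 and 45.9 FPKM) and HELLS above CHAF1B (24.8 and 10.997 FPKM). ASF1B stayed in the third place at 61.2 FPKM.

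**Figure D1:**
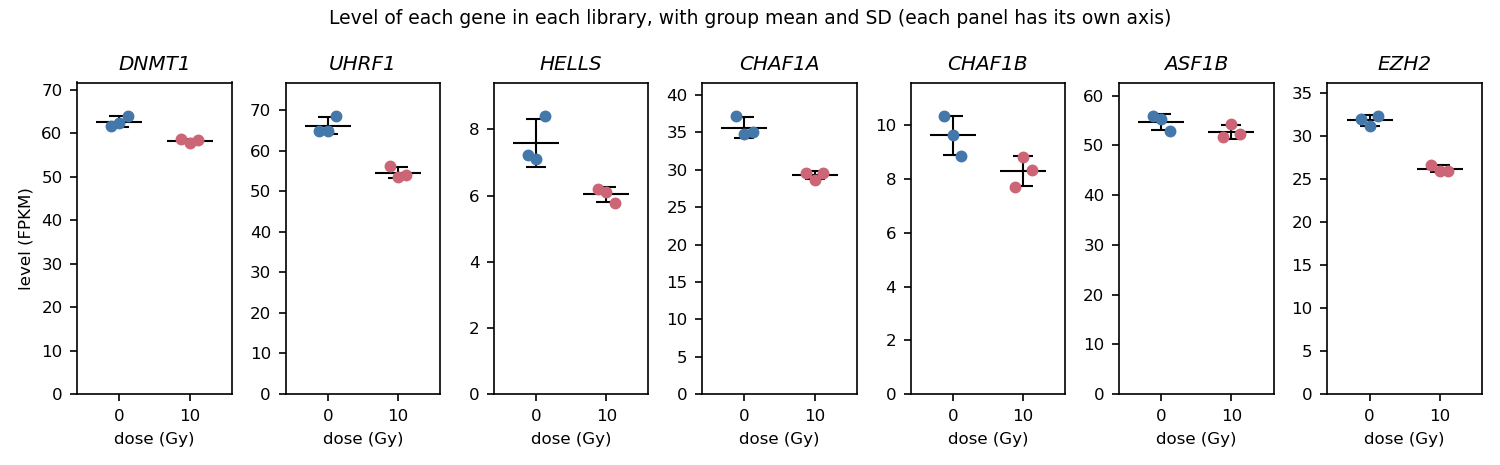
FPKM of the 7 genes in the 3 libraries at 0 Gy and the 3 libraries at 10 Gy. Each point is a library, with the group mean as a line and the SD as whiskers, and each panel has its own axis from 0. UHRF1, DNMT1 and ASF1B lie above 50 FPKM in all libraries, and the points of the 2 doses overlap only for ASF1B.

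After 10 Gy, 5 of the 7 genes fell past the threshold and none rose. These were UHRF1, EZH2, CHAF1A, HELLS and DNMT1, in each of which all 3 irradiated libraries lay below all 3 unirradiated ones. Changes were tested with limma on log2(FPKM + 1), with Benjamini-Hochberg adjustment over all 12128 genes and a threshold of 0.05, and this scale understates the change of genes with low values. Over all tested genes 23.7% were called lower and 11.9% higher, and 32.8% had lower irradiated libraries without overlap, which held for 6 of the 7 members. The median log2 change was -0.27 over the 7 genes and -0.04 over all genes tested. In RNA from whole cultures, fewer cells in S phase and less RNA of a gene per cell cannot be told apart.

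The number of calls depended on scaling. With each library scaled to equal sums (TPM), by its upper quartile, by medians of ratios or to its recovered reads, 3, 3, 4 and 4 of the 7 were lower. Over all 12128 genes tested, 2874 were lower as deposited, and 1066, 1444, 2047 and 1651 in the same order. Among all genes called, a smaller base than the genes tested, the share that was lower was 66.6% as deposited, and 25.5%, 36.1%, 51.3% and 41.9% in the same order. The median of all genes moved by 0.12, 0.08, 0.04 and 0.06 on the log2 scale. A scaling shifts nearly every gene of a library alike, so changes relative to the median of all genes are nearly the same in each scaling by construction, and they are given only as values. UHRF1 was -0.23 as deposited and -0.23 after TPM scaling, EZH2 -0.23 and -0.23, CHAF1A -0.24 and -0.23, HELLS -0.25 and -0.27, CHAF1B -0.15 and -0.16, DNMT1 -0.06 and -0.05, and ASF1B -0.01 and 0.00.

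Of the methylation maintenance genes, UHRF1 (ENSG00000276043, chr19:4903080-4962154 of GRCh38, plus strand), the reader of hemimethylated CpG sites, had 64.9, 64.8 and 68.5 FPKM at 0 Gy and 56.1, 53.5 and 54.0 FPKM at 10 Gy. The highest irradiated library was below the lowest unirradiated one. UHRF1 fell by 0.27 on the log2 scale (SE 0.036, limma adjusted p = 0.00198), its mean fell by 17.5%, and it was called under all 17 alternatives.

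DNMT1 (ENSG00000130816, chr19:10133345-10231286, minus strand), the maintenance methyltransferase, had 61.6, 62.3 and 64.0 FPKM at 0 Gy and 58.6, 57.8 and 58.5 FPKM at 10 Gy. The doses did not overlap, but the gap between them was narrow. The change was -0.10 (SE 0.029, 95% confidence interval -0.17 to -0.03, limma adjusted p = 0.030), the mean fell by 6.91%, and 36.2% of all tested genes fell more. This call was lost under each of the 4 other scalings, with values of -0.05 under medians of ratios, -0.03 on recovered reads, -0.01 under the upper quartile and +0.03 after TPM scaling. It was also lost when any library but 0 Gy replicate 1 was left out (adjusted p = 0.0542 to 0.111). DNMT1 shares 9854 bases on the same strand with S1PR2, which reached at most 0.786 FPKM.

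HELLS (ENSG00000119969, chr10:94501434-94613905, plus strand), the remodeller, had 7.24, 7.11 and 8.41 FPKM at 0 Gy and 6.21, 6.12 and 5.78 FPKM at 10 Gy. Its 3 irradiated values were the lowest, and 0 Gy replicate 3 stood above the other unirradiated libraries. HELLS fell by 0.28 (SE 0.064, limma adjusted p = 0.0137), and its mean fell by 20.4%, the largest fall of the 7. The call was lost after TPM scaling (adjusted p = 0.101), under the upper quartile (0.0585) and with no filter on low values (0.0532). HELLS overlaps TBC1D12 by 34497 bases on the same strand, and TBC1D12 reached up to 3.82 FPKM. How reads in shared bases were assigned is not given in the sources used here.

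Of the CAF-1 subunits, CHAF1A (ENSG00000167670, chr19:4402662-4445018, plus strand), the large subunit that contacts PCNA, had 37.2, 34.7 and 35.0 FPKM at 0 Gy and 29.6, 28.7 and 29.6 FPKM at 10 Gy. The irradiated libraries lay together, well below the others. CHAF1A fell by 0.27 (SE 0.036, limma adjusted p = 0.00204), its mean fell by 17.8%, and it was called under all 17 alternatives. CHAF1A overlaps UBXN6 by 20 bases on the opposite strand. CHAF1B (ENSG00000159259, chr21:36385378-36419015, plus strand), the middle subunit, had 10.4, 9.65 and 8.88 FPKM at 0 Gy and 7.72, 8.83 and 8.36 FPKM at 10 Gy. Its doses met without overlapping, with 0 Gy replicate 3 close to 10 Gy replicate 2. The CHAF1B change of -0.19 (SE 0.065, 95% confidence interval -0.34 to -0.04) missed the threshold (limma adjusted p = 0.0552). It passed in 4 of the 17 alternatives, among them the fit without 0 Gy replicate 3 (adjusted p = 0.0332). CHAF1B shares 771 bases on the same strand with MORC3, which reached 5.62 FPKM.

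ASF1B (ENSG00000105011, chr19:14119509-14136956, minus strand), which hands H3-H4 to CAF-1 in proliferating cells, had 55.9, 55.3 and 52.8 FPKM at 0 Gy and 51.6, 54.4 and 52.2 FPKM at 10 Gy. The doses overlapped, as they did for no other gene of the 7. Its change was -0.05 (SE 0.036, 95% confidence interval -0.13 to 0.03, limma adjusted p = 0.291), and it turned to 0.08 after TPM scaling, 0.04 under the upper quartile and 0.02 on recovered reads.

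EZH2 (ENSG00000106462, chr7:148807383-148884321, minus strand), the H3K27 methyltransferase, had 31.9, 31.1 and 32.3 FPKM at 0 Gy and 26.6, 25.9 and 26.0 FPKM at 10 Gy. Spread within a dose was small and the doses were far apart. EZH2 fell by 0.27 (SE 0.030, limma adjusted p = 0.00117), its mean fell by 17.6%, and it was called under all 17 alternatives. The EZH2 pseudogene EZH2P1 was listed at 0.

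**Figure D2:**
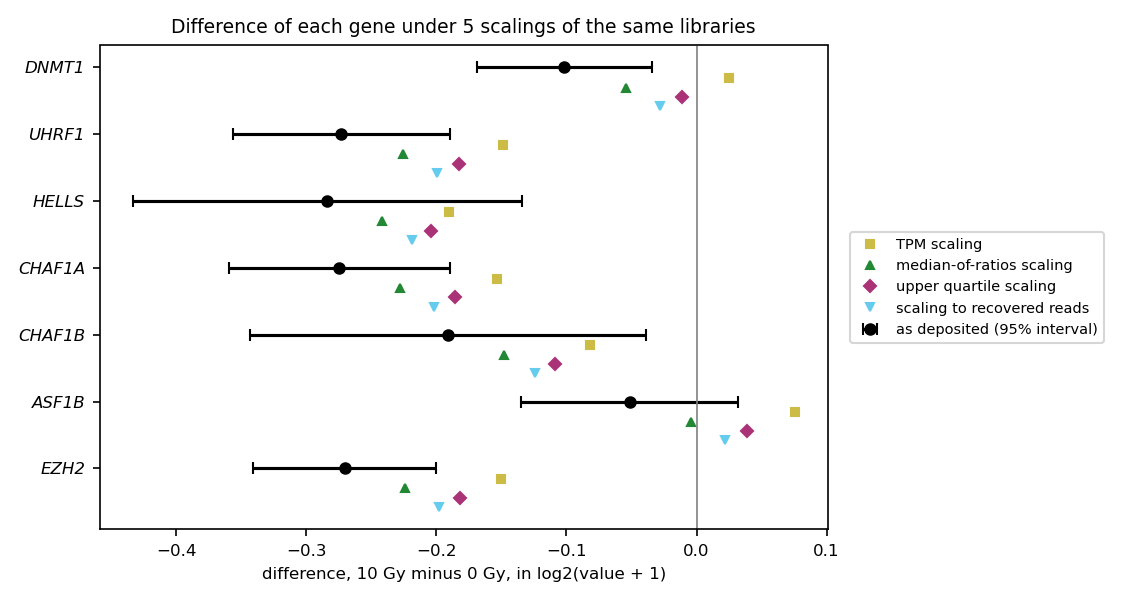
Change of each of the 7 genes, 10 Gy minus 0 Gy, in log2(FPKM + 1), as deposited (black, with 95% confidence intervals) and under 4 other scalings (coloured points). UHRF1, EZH2, CHAF1A, HELLS and CHAF1B stay below 0 in every scaling, while DNMT1 (-0.10 as deposited, +0.03 after TPM scaling) and ASF1B (-0.05 and 0.08) cross it.

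Ratios between genes of the same library do not depend on its scaling, apart from the added 1 FPKM. DNMT1 was 0.948 ± 0.0137 times UHRF1 at 0 Gy and 1.07 ± 0.0216 times at 10 Gy (SD, n = 3), so that with the gene lengths of the table their order at 0 Gy was the opposite of that at 10 Gy in every library. By principal transcript length DNMT1 was the higher at both doses, at 113 against 105 FPKM at 0 Gy and 106 against 86.8 FPKM at 10 Gy. The log2 ratio differed by 0.17 between doses. By an exact two-sided permutation test over libraries p was 0.1, the smallest that 3 against 3 libraries allow, and 0.175 after adjustment over the 7 ratios computed. No ratio could therefore pass 0.05.

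Of the 4 paralogs tested, 1 was called lower as deposited and 0 after TPM scaling, and none was higher. Over all tested genes 23.7% were lower and 11.9% higher as deposited, so these counts are near the background. ASF1A, which serves both CAF-1 and the replication-independent chaperone HIRA, had 11.8, 10.6 and 12.7 FPKM at 0 Gy and 9.78, 9.14 and 9.73 FPKM at 10 Gy. It fell by 0.26 (limma adjusted p = 0.0172), a call kept by 1 of the 4 scalings and lost without 10 Gy replicate 2 (adjusted p = 0.0650). ASF1B thus went from 4.71 ± 0.530 to 5.53 ± 0.362 times ASF1A, without overlap of the log2 ratios (exact permutation p = 0.1, adjusted 0.175). The doses nearly met, with a log2 ratio of 2.283 in 0 Gy replicate 2 and 2.288 in 10 Gy replicate 1.

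EZH1, the other PRC2 methyltransferase, stood at 3.099 ± 0.282 FPKM at 0 Gy and 2.58 ± 0.128 FPKM at 10 Gy, with a change of -0.19 (limma adjusted p = 0.0559). EZH2 was 10.3 ± 1.07 times EZH1 at 0 Gy and 10.1 ± 0.358 times at 10 Gy, with overlap. UHRF2, a relative of UHRF1, changed from 3.09 ± 0.0533 to 2.90 ± 0.0480 FPKM, a difference of -0.07 (adjusted p = 0.255) that became 0.03 after TPM scaling. UHRF1 was 21.4 ± 0.950 times UHRF2 at 0 Gy and 18.8 ± 0.685 times at 10 Gy, and these log2 ratios did not overlap (exact permutation p = 0.1).

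Both de novo methyltransferases were low beside DNMT1. DNMT3B had 7.96, 9.46 and 8.98 FPKM at 0 Gy and 9.27, 9.94 and 8.53 FPKM at 10 Gy, with overlap and a change of 0.07 (limma adjusted p = 0.511) that ranged from 0.00184 to 0.116 with a library left out. DNMT3A, under the 1 FPKM filter, had 0.901, 0.817 and 0.768 FPKM at 0 Gy and 1.19, 1.08 and 0.945 FPKM at 10 Gy, from 151 to 428 reads per library. Its change without the filter was 0.18 (limma adjusted p = 0.274). DNMT1 was 76.0 ± 7.44 times DNMT3A at 0 Gy and 54.8 ± 6.47 times at 10 Gy, without overlap of the log2 ratios (exact permutation p = 0.1, adjusted 0.175). CHAF1A was 3.71 ± 0.200 times CHAF1B at 0 Gy and 3.54 ± 0.293 times at 10 Gy, with overlap (exact permutation p = 0.4).

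**Figure D3:**
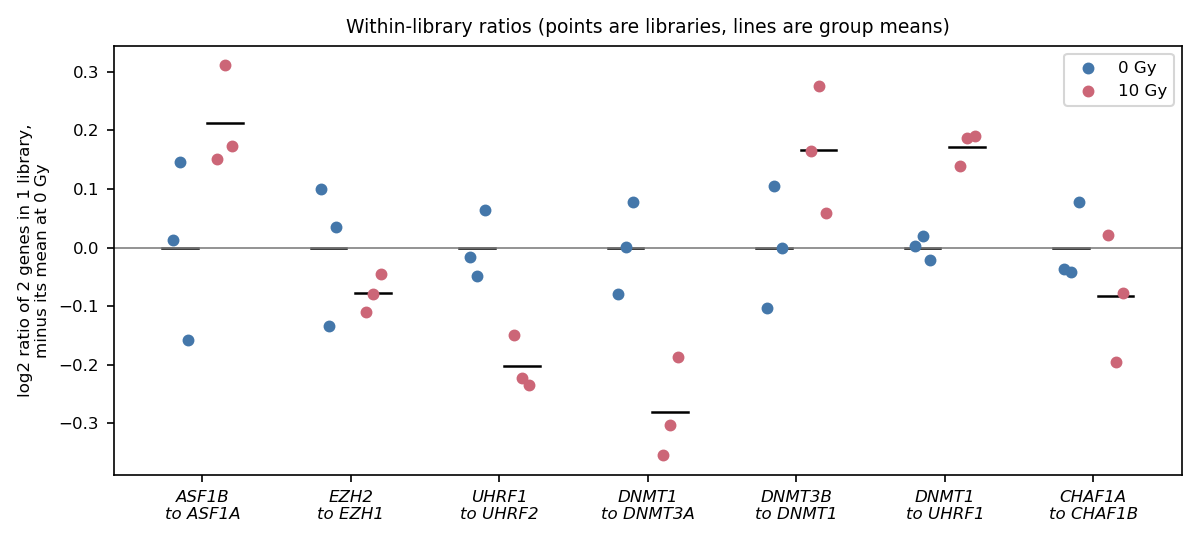
Log2 ratios within each library, relative to the mean at 0 Gy, for the 7 gene pairs. Points are libraries and lines group means. The irradiated libraries do not overlap the others for ASF1B to ASF1A and DNMT1 to UHRF1 (higher) and for UHRF1 to UHRF2 and DNMT1 to DNMT3A (lower), each with an exact p of 0.1. For ASF1B to ASF1A the doses nearly touch.

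Around the 7 genes, 11 lists of chromatin and methylation genes held 66 genes, of which 54 were tested. As deposited, 20 were called lower and 8 higher, and after TPM scaling 6 and 14. The median change of these 54 genes was -0.08. Over all 12128 genes tested, 23.7% were lower and 11.9% higher as deposited. After TPM scaling, 1066 of the 12128 were lower and 3113 higher. The counts of the lists stand beside this background, and no list was tested as a set. Among other replication-linked H3-H4 chaperones, 2 of 6 were lower as deposited and 0 after TPM scaling, and the one with the larger fall was HAT1, which acetylates new histone H4 (11.9 to 10.4 FPKM, -0.18, limma adjusted p = 0.00977, called in 1 of 4 scalings). Of 7 replication-independent H3.3 chaperones, 2 were lower and 2 higher as deposited, and 0 and 3 after TPM scaling. UBN2, a HIRA partner, stood at 0.940 FPKM at 0 Gy and 1.39 FPKM at 10 Gy (0.30 on the log2 scale). With a mean under 1 FPKM at 0 Gy, UBN2 passed the filter only through the irradiated libraries, so its rise is given only as a value. The counts of higher genes in this list and among the 54 include UBN2, and its part in them is no support for a rise.

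All 5 genes of FACT and nucleosome assembly were lower as deposited, with 3 to 4 of them lower in the other scalings. SET, an H3-H4 binding chaperone, fell from 148 ± 1.01 to 115 ± 4.07 FPKM (-0.35, limma adjusted p = 0.000838). The FACT subunits SUPT16H (53.5 to 44.2 FPKM, -0.27, adjusted p = 0.000886) and SSRP1 (66.3 to 54.5 FPKM, -0.28, adjusted p = 0.00248) fell by amounts near those of CHAF1A. NAP1L4 (-0.17, adjusted p = 0.00885) kept its call in 1 of the 4 scalings and NAP1L1 (-0.13, adjusted p = 0.0290) in 0. NAP1L1 was also lost without any of 4 libraries, 0 Gy replicates 1 and 2 and 10 Gy replicates 1 and 2 (adjusted p = 0.0536 to 0.107).

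Of 10 other PRC2 subunits, 4 were lower and 1 was higher as deposited, and 1 and 2 after TPM scaling. EED, which binds methylated H3K27 and is required for EZH2 activity, fell from 9.44 to 7.64 FPKM (-0.27, limma adjusted p = 0.00534), close to the fall of EZH2. JARID2, an accessory subunit, rose from 7.23 to 8.74 FPKM (0.24, adjusted p = 0.00239). Of the demethylases that remove the same mark, KDM6B rose from 2.28 to 3.16 FPKM (0.34, adjusted p = 0.00538), a call kept in all 4 other scalings. KDM6A stood at 3.49 and 3.76 FPKM (0.08, adjusted p = 0.217) and was not called as deposited. It was called higher in 2 of the 4 other scalings, TPM (limma adjusted p = 0.0249) and upper quartile (0.0421).

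Of 7 other DNA methylation writers and cofactors tested, 2 were lower as deposited and 1 after TPM scaling. LIG1, the ligase that joins Okazaki fragments and is bound by UHRF1, had the larger fall, from 14.1 to 10.6 FPKM (-0.39, limma adjusted p = 0.00199). Of the genes that oxidise or remove methylated cytosine, TET2 rose from 2.08 to 2.52 FPKM (0.19, adjusted p = 0.0417), a call lost without any single library but 0 Gy replicate 3 (adjusted p = 0.0689 to 0.112). TET3 (0.06, 0.0243 to 0.101 with a library left out, adjusted p = 0.413) and TDG (0.06, adjusted p = 0.180) were not called as deposited. TDG was called higher in all 4 other scalings (limma adjusted p = 0.00705 after TPM scaling to 0.0389 under medians of ratios), and TET3 in 0. Each of those scalings also called more of all tested genes higher.

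Methyl-CpG readers and related genes divided into 2 lower, 2 higher and 2 not called as deposited, and into 1 lower and 3 higher after TPM scaling. MBD3, a subunit of the NuRD complex listed by family and not as an established reader, fell from 24.3 to 19.1 FPKM (-0.33, limma adjusted p = 0.00139). MBD1 rose from 7.95 to 8.83 FPKM (0.13, adjusted p = 0.0360), a call lost without any library but 0 Gy replicate 2 (adjusted p = 0.0626 to 0.111). Of 9 genes of H3K9 and H4K20 methylation and HP1, 4 were lower and 1 higher as deposited, and 0 and 1 after TPM scaling. SUV39H1, an H3K9 methyltransferase, fell from 9.56 to 7.72 FPKM (-0.28, adjusted p = 0.00455, called in 3 of 4 scalings), and CBX5, which encodes HP1 alpha, rose from 9.75 to 13.8 FPKM (0.46, adjusted p = 0.00113).

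Germline genes that somatic cells keep methylated were low at both doses. All 9 listed were under 1 FPKM and untested, DAZL, DDX4, SYCP1 and TEX101 had no reads in any library, and the highest value was 0.682 FPKM (MAEL at 0 Gy).

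Cell cycle genes moved in the same libraries. Of 15 S phase replication genes, 15 were called lower as deposited, with a median of -0.43, and 13 to 15 in the other scalings. RRM2, a ribonucleotide reductase subunit, fell from 35.1 to 21.6 FPKM (-0.67, limma adjusted p = 0.000227). Of 11 G2 and mitosis genes, 9 were higher in every scaling, with a median of 0.27 as deposited, and AURKA, a mitotic kinase, rose from 93.5 to 132 FPKM (0.49, adjusted p = 0.000346). Among 15 tested E2F and DREAM regulators, 5 were lower and 1 higher as deposited, and 2 and 2 after TPM scaling. Over all tested genes 23.7% were lower and 11.9% higher as deposited. E2F8, an E2F repressor, fell from 11.8 to 9.05 FPKM (-0.35, adjusted p = 0.00710) while RBL2 rose from 3.49 to 4.50 FPKM (0.29, adjusted p = 0.00463). The part of the cell cycle distribution in the falls of the 7 genes was not tested.

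**Figure D4:**
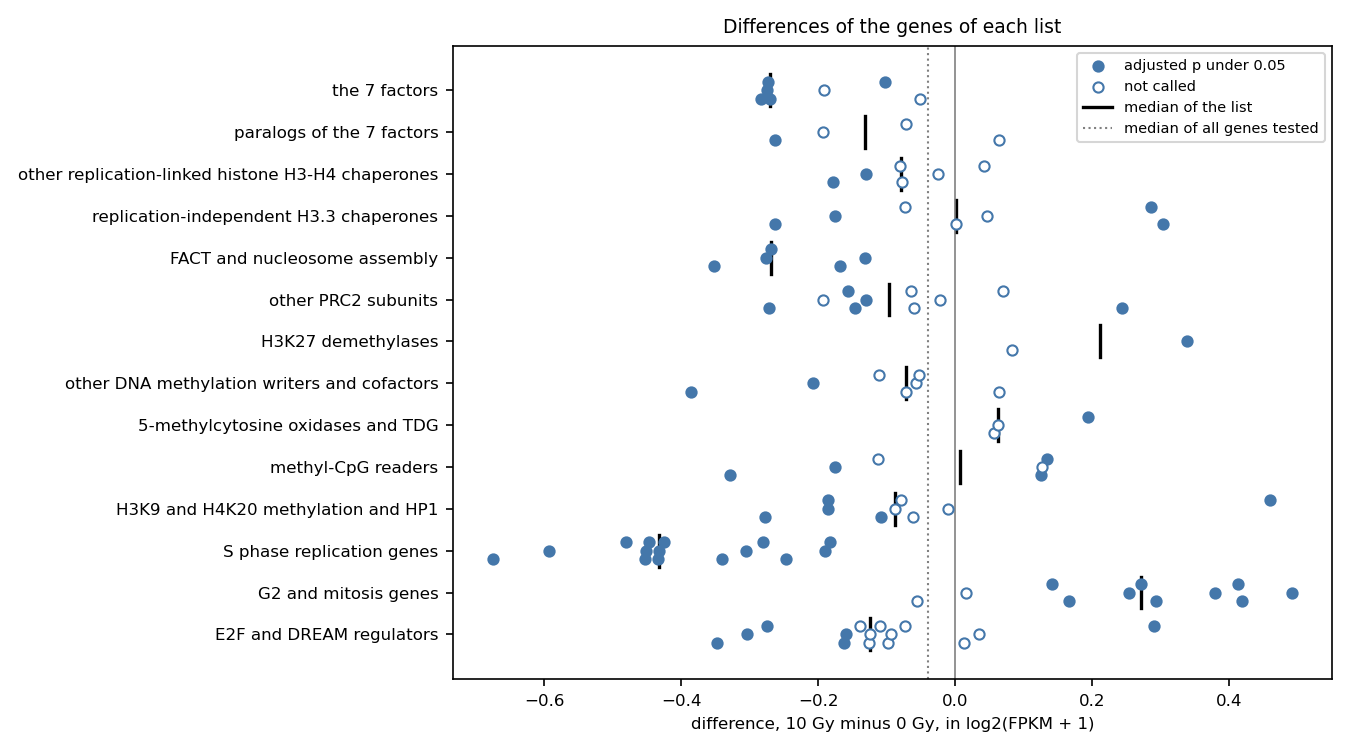
Change of each tested gene, 10 Gy minus 0 Gy, in log2(FPKM + 1) as deposited, by list. Filled points passed an adjusted p of 0.05, black bars are list medians and the dotted line is the median of all genes (-0.04). The 7 factors have a median of -0.27, S phase genes -0.43 and G2 and mitosis genes 0.27.

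Profiles over the 6 libraries, centred on each gene's mean in log2(FPKM + 1), were nearest to each other for UHRF1 and EZH2, with a root mean square distance of 0.0198, and farthest for ASF1B and HELLS, at 0.152. Outside the lists, the protein-coding genes nearest to the mean profile of the 7 were PPT1 (0.00773), PRKCSH (0.0106), IGFBP1 (0.0124), WTAP (0.0129) and YWHAE (0.0131). The closest gene was SART3 for DNMT1 (0.00828), PUS3 for UHRF1 (0.0140), TRA2B for EZH2 (0.0142), RHOG for CHAF1A (0.0116), AL606834.1 for CHAF1B (0.0173), POMGNT2 for ASF1B (0.0134) and SFXN2 for HELLS (0.0284). These distances describe 6 libraries of 2 doses, and any gene with a like difference between doses scores well.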

How the data were processed

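RNA-sequencing of 6 MDA-MB-231 libraries was analysed, 3 at 0 Gy and 3 at 24 h after 10 Gy, grouped by the treatment in the labels. The authors deposited FPKM values from polyA libraries sequenced by Novogene. The submitters' processing notes name HISAT2 and GRCh38, and the counting program, its use of strand and its handling of shared bases are not given in the sources used here. Gene identifiers are those of GENCODE 29.

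Reads were recovered by multiplying FPKM by gene length and implied depth, and served for depth and as alternatives. The test was limma 3.58.1 (R 4.3.3), two-sided, applied to log2(FPKM + 1) of the 12128 genes averaging 1 FPKM or more, with trended eBayes variances and Benjamini-Hochberg adjustment. Ratios were compared by exact permutation tests over libraries. The limma fit was tried on simulated data in which few genes changed and no scaling factor moved with dose. That simulation therefore cannot speak to calls that depend on scaling. Alternatives covered the pseudocount, filters, 4 scalings (the one to recovered reads was added after seeing the data, as were levels by principal transcript length), the replicate block, each library left out, eBayes without a trend, protein-coding genes alone and voom on recovered reads.

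The members, the gene lists and the tests were chosen with earlier results of these data known. Named genes were the 7 members, their paralogs, the called gene with the largest rise and fall of each list, every gene of lists of 5 or fewer, and the most alike profiles. TET1 and DNMT3A fell under the filter. Protein sequences were not used here. Tables and plots were made in Python 3.11.15, the latter by matplotlib 3.10.9.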

Additional observations from a re-analysis of the deposited data

How the results depend on the processing

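UHRF1, EZH2 and CHAF1A kept direction and call in all 17 alternatives. Of the 7 genes, 3 were lower after TPM and 3 after upper quartile scaling. DNMT1 turned to 0.0251 after TPM scaling, ASF1B to 0.0756 (TPM), 0.0388 (upper quartile) and 0.0220 (recovered reads), and UHRF2 to 0.0310 (TPM), which follows from the shift of all genes under those scalings. Over all genes 2874 were lower and 1443 higher as deposited. The lower count was 1815 without a filter, 1066 after TPM, 1444 after upper quartile and 1651 after recovered-read scaling, and the higher count 874 at a filter of 5 FPKM, 3113, 2556 and 2294 in the same 3 scalings. In the chromatin lists 6, 9 and 10 genes were lower in those 3 scalings, while 14 were higher after TPM and 14 after upper quartile scaling, 4 without a filter and 5 at 5 FPKM. Leaving out each library gave 1808 to 2630 lower and 852 to 1393 higher genes, lowest without 10 Gy replicate 1 (1830 and 875) or 10 Gy replicate 2 (1808 and 852), and 4 to 8 higher chromatin genes, with 4 without either of those and 5 without 0 Gy replicate 1 or 10 Gy replicate 3. The cause was not tested.

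Levels at 0 Gy in TPM were 242 for UHRF1, 230 for DNMT1, 200.3 for ASF1B, 131 for CHAF1A, 116 for EZH2, 35.2 for CHAF1B and 27.8 for HELLS, and by principal transcript 105, 113, 61.2, 45.9, 54.5, 10.997 and 24.8 FPKM.

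Same-numbered libraries did not deviate together (correlations across genes of -0.040, -0.035 and -0.101, against up to 0.094 for different numbers). These values show no pairing by number. They cannot exclude it, because shared handling that touched few genes would leave such correlations near 0. With the replicate block 2366 genes were lower and 1137 higher, 4 of the 7 members were lower (DNMT1 adjusted p = 0.0780) and 5 chromatin genes were higher.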
